A study of Mus musculus with 17 samples.

Results

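Lipopolysaccharide (LPS), a cell wall component of Gram-negative bacteria, binds the Toll-like receptor complex of macrophages and changes which stretches of their chromatin are open. The assay for transposase-accessible chromatin with sequencing (ATAC-seq) maps these stretches as peaks of cut DNA. Here the sites were described that were open before and 1 h after LPS and were then lost from the most prominent peaks at 18 h. They numbered 658 of 34141 sites (1.93%) and are called late-lost sites. To find them, the best 24389 peaks of each of the 17 deposited lists were kept, which is the length of the shortest list, and the peaks of all lists were merged into sites that occurred in 2 or more lists. A late-lost site had a peak in at least 5 of the 6 lists at 0 h, in at least 4 of the 5 lists at 1 h and in at most 1 of the 6 lists at 18 h. The sites were thus chosen by presence among the best peaks at 0, 1 and 18 h, and these values are given as a description with no test. In cell populations, fewer cells with an open site and a less open site in each cell cannot be told apart.

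The cells were bone marrow-derived macrophages (BMDMs) of C57Bl6/J background from male mice aged 6 to 12 weeks, differentiated for 7 days in L929 cell-conditioned medium. Wild-type (WT) littermates were compared with whole-body Nur77-deficient (Nur77-KO) mice, in which a loxP-flanked Nr4a1 allele had been deleted by CMV-Cre and, by the study's methods, the Cre transgene then bred out. The genotype label of these samples reads cre, and the difference between both sources could not be settled here. Nr4a1 encodes Nur77, an orphan nuclear receptor that is itself an immediate-early gene in activated macrophages. Cells of each genotype were left untreated or received 100 ng/ml LPS for 1 or 18 h, with 3 lists per group except WT at 1 h, which had 2. One of these is labelled replicate 1-2, so it may join 2 libraries, and it was counted as 1 sample. The sources do not say whether replicates were separate animals, so p-values measure the spread between these libraries only.

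Accessible sites away from genes are commonly enhancers, where transcription factors displace nucleosomes. In macrophages PU.1 and C/EBP factors bind many of them in the resting state, while AP-1 (dimers of Fos, Jun and ATF proteins), NF-kB and interferon regulatory factors (IRFs) act at many of the sites used after LPS. AP-1 and EGR factors are made or activated within the early phase of stimulation and then decline.

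Representative sequences show what the late-lost sites look like and which short motifs they hold. Each is read from the plus strand of the RefSeq GRCm38.p6 genome (the mm10 build of the files), within 100 bp of the peak summit, with motif matches in capitals. The Nr4a1 and Myc sequences are shorter because they stop before the first annotated exon. The site upstream of Nr4a1 (chr15:101266655-101266845) and the site upstream of Myc (chr15:61985254-61985390) are shown because these promoters of immediate-early genes were both late-lost. Their capitals mark the SP/KLF motif GGGCGGG on either strand. The Nr4a1 site also had an NF-kB match in its full window, which is not within the bases shown.

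Nr4a1 promoter: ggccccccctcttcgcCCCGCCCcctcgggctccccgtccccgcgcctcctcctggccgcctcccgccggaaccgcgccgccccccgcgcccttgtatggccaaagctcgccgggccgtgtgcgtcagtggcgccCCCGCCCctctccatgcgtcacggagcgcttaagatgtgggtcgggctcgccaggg
Myc promoter: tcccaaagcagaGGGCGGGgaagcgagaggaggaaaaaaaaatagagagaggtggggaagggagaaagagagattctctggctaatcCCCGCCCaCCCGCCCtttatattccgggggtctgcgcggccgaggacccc

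The site nearest Tiam1 (chr16:90177567-90177767) was the best-ranked late-lost site at 0 h, and the site nearest Zfp90 (chr8:106387829-106388029) was the best-ranked one with an AP-1 motif that was in all lists at 0 and 1 h and in none at 18 h. The site nearest Ado (chr10:67717579-67717779) and the site in Anxa2 (chr9:69458151-69458351) are shown for their climb in rank at 1 h, the latter chosen after its values were seen. Capitals mark the RUNX match (TGTGGTT or its complement) and the AP-1 match (TGAGTCA or TGACTCA) at Tiam1, the AP-1 match at Zfp90, the C/EBP, AP-1 and SP/KLF matches in that order at Ado, and the NF-kB match followed by the EGR match (GCGTGGG) at Anxa2.

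Tiam1: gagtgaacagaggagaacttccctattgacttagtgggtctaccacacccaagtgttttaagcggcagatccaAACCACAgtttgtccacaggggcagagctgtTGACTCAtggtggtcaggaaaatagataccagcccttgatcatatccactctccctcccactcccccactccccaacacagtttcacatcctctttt
Zfp90: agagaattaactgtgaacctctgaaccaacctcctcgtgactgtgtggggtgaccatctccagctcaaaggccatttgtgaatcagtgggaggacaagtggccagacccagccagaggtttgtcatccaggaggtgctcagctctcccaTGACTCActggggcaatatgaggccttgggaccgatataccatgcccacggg
Ado: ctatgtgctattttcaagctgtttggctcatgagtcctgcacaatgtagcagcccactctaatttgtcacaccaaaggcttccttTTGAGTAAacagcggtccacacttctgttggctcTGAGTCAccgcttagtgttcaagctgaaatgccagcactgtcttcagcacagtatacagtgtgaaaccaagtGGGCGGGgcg
Anxa2: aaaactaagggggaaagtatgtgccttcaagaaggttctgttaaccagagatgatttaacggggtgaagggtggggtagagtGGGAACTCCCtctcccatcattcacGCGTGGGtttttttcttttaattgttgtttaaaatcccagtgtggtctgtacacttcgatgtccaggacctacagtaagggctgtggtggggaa

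The libraries differed in depth by a factor of 25.5, from 0.382 to 9.75 background reads per kb as recovered from the deposited fold and p-values, and the lists held 24389 to 71456 intervals. Values were therefore compared between lists mainly as ranks, with rank 1 the peak of smallest p-value. Depth was uneven across the groups: it was 4.62 to 8.38 reads per kb in the WT lists at 18 h and 1.10 to 1.76 in the Nur77-KO lists at 18 h. Replicate 1 of Nur77-KO at 18 h stood apart, with a median width of its best peaks of 167 bp against 338 to 1241 bp in the other lists. Without this list 720 sites were found, and without the shallowest list, WT replicate 1-2 at 1 h, 823 were found. In both cases 1 exception per time was still allowed among the lists left, which loosens the conditions where a list at 0 or 1 h is left out. Of 8 macrophage marker promoters, 4 had a peak in all 17 lists and the others in 12 to 16. Of 26 promoters of other cell types, 20 were not among the best peaks of any list, the T cell gene Cd3d was in all 17, and S100a8, Col1a1, Zbtb46, Ms4a1 and Pdgfra were in 15, 14, 13, 10 and 1. The part of other cells in the results was not tested.

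At 0 h the late-lost sites were peaks of middling to low rank. Their median rank lay between 16173 and 17147 in the 6 lists at 0 h and between 13770 and 15327 in the 5 lists at 1 h. Sites in all 17 lists had median ranks between 5499.5 and 5644.5 at 0 h. The share of late-lost sites inside the best 24389 peaks was 97.6% ± 0.846 (SD, n = 3) in WT and 91.9% ± 6.71 (n = 3) in Nur77-KO at 0 h. At 1 h it was 89.6% ± 9.78 (n = 2) in WT and 95.2% ± 4.11 (n = 3) in Nur77-KO, and at 18 h it was 4.81% ± 0.489 in WT and 7.95% ± 1.90 in Nur77-KO (n = 3 each). These shares follow from how the sites were chosen.

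Most late-lost sites did not vanish from the WT macrophages at 18 h but sank in rank. In the full lists, a peak remained at 95.3%, 87.5% and 76.1% of the late-lost sites in the 3 WT lists at 18 h and at 34.5%, 22.3% and 31.6% in the 3 Nur77-KO lists. The WT shares thus all lay above the Nur77-KO shares, but the WT lists were also longer, with 46364 to 61492 intervals against 29568 to 36136. Over all consensus sites the shares were also apart, at 89.3% to 95.8% in the WT lists and 69.6% to 74.1% in the Nur77-KO lists at 18 h. Within the best 29568 peaks of each list, the length of the shortest list at 18 h, the shares were 36.8%, 31.3% and 29.8% in WT and 19.0%, 22.3% and 22.0% in Nur77-KO. The gap between the genotypes was narrower at matched list length, and nothing particular to late-lost sites is read from it. Depth and genotype cannot be told apart at 18 h, since all WT lists were deeper than all Nur77-KO lists.

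A peak remained in all 3 WT lists at 18 h for 467 late-lost sites (71.0%), in no WT list for 14 and in none of the 6 lists for 9. Their median rank in the WT lists moved to between 31206 and 31938 at 18 h. Across the sites, the WT median rank at 18 h was 2.05 times that at 0 h (quartiles 1.66 and 2.53), where ranks were capped at 46364 and 98 sites reached the cap. For all sites in at least 5 lists at 0 h and 4 at 1 h this ratio was 1.05. The contrast between both ratios follows from how the sites were chosen.

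The reads at the summits were also set against the background of each list. Late-lost sites without a peak in a list do not enter its value, which can raise it at 18 h and in WT replicate 1-2 at 1 h, which listed 82.7% of the sites. At 0 h in Nur77-KO the value was higher in the shallower lists, and the part of depth in the differences between times was not tested. Over those with a peak, the median summit read depth divided by the list's background reads per kb was 11.4, 11.5 and 11.3 in the WT lists at 0 h. It was 15.7 and 13.1 in the WT lists at 1 h and 3.58, 2.91 and 3.03 in the WT lists at 18 h. In Nur77-KO it was 11.5, 11.8 and 12.5 at 0 h, 13.0, 15.2 and 14.8 at 1 h and 3.77, 4.56 and 3.97 at 18 h. Both genotypes were thus higher at 1 h than at 0 h and lowest at 18 h, without overlap between times. The low values at 18 h follow from how the sites were chosen, by the p-value rank of these same peaks. At the sites in all 17 lists the same ratio averaged 29.7 in WT at 0 h and 16.9 at 18 h, so summits were lower at 18 h there too.

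**Figure D1:**
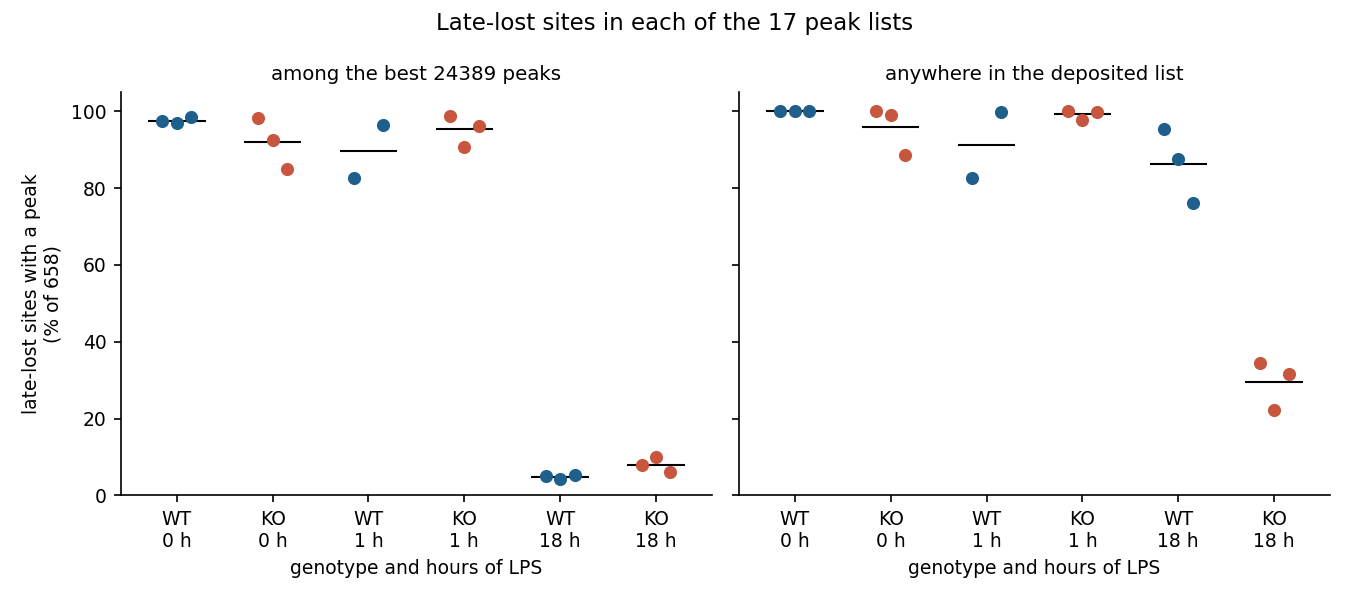
Share of the 658 late-lost sites (y axis, percent) with a peak in each list, by genotype and hours of LPS (x axis). Points are single lists and bars are group means; the left panel counts the best 24389 peaks, on which the sites were chosen, and the right panel counts all deposited peaks, where WT lists at 18 h held 76.1% to 95.3% and Nur77-KO lists 22.3% to 34.5% (89.3% to 95.8% and 69.6% to 74.1% over all consensus sites).

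The pattern of lists varied among the late-lost sites. Of them, 277 were in 6 of 6 lists at 0 h and in 0 of 6 at 18 h, a pattern that 1.97% of all consensus sites had and that the choice of sites used. Of the 658 sites, 187 also had a peak in all 5 lists at 1 h. The list at 1 h without a peak was most often the shallowest, WT replicate 1-2, which lacked 114 of the sites. At the thresholds, 406 sites were in 0 lists and 252 in 1 list at 18 h (median 0 h ranks 17447 and 16605), and the 250 sites just outside, in 2 lists, had a median rank of 16168. The 101 sites excluded for having 4 of 6 lists at 0 h had a median rank of 22416, and the 252 excluded for 3 of 5 lists at 1 h had one of 18694.

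The order of ranks between 0 and 1 h was not used to choose the sites. The median rank improved at 1 h for 402 late-lost sites (61.1%), against 38.2% of the 16256 sites that met the conditions at 0 and 1 h. For 103 late-lost sites (15.7%) all 5 ranks at 1 h were better than all 6 at 0 h, where the background over the 16256 sites was 8.88%. For 25 (3.80%) all ranks at 1 h were worse, against a background of 10.1%. These differences moved with the starting rank. Among sites with a median 0 h rank of 16000 to 20000, 66.8% of 235 late-lost sites and 72.4% of 579 sites that were in all 6 lists at 18 h improved at 1 h. Between 12000 and 16000 the shares were 47.8% of 182 and 51.8% of 1274. In neither band was the share that improved higher among late-lost than among retained sites. No intervals were drawn for these shares, so the small gaps are not read as a difference.

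The strongest gains at 1 h were read after the values were seen. An intronic site of Strip2, a gene for a striatin-interacting protein (chr6:29940240-29941159), went from ranks of 16848 to 23472 at 0 h to ranks of 1687 and 2920 in WT and 2165, 1069 and 3395 in Nur77-KO at 1 h. It then stood at 39729, 38971 and 32934 in the WT lists at 18 h. The site in Anxa2, which encodes the phospholipid-binding protein annexin A2, ranked between 14285 and 23790 at 0 h and between 1211 and 3501 at 1 h, and was absent from 1 WT and 2 Nur77-KO lists at 18 h. At both sites every list at 1 h ranked better than every list at 0 h. The second-best site at 0 h, in an intron of Hivep3 (chr4:120031797-120033586), a gene for a zinc finger protein, also climbed, from ranks of 2671 to 5528 at 0 h to ranks of 104 to 1409 at 1 h.

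**Figure D2:**
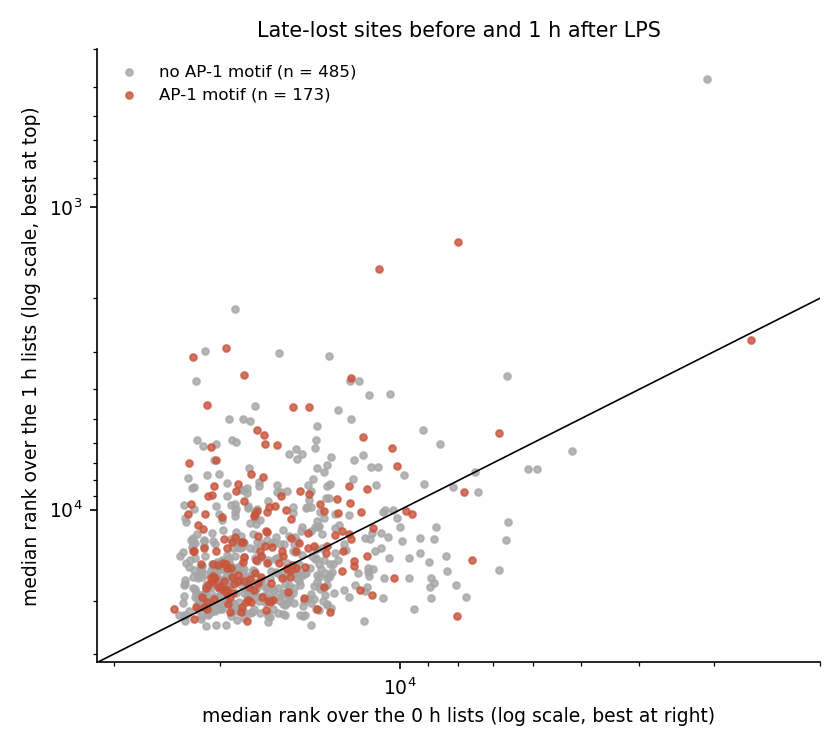
Median rank of each late-lost site over the 0 h lists (x axis) and over the 1 h lists (y axis), both on log scales with the best ranks at the right and top, using the lists in which the site had a peak. Sites above the diagonal ranked better at 1 h; sites with an AP-1 motif (173, red) lay above it more often (71.1% with absent peaks set to the rank limit) than the other 485 (57.5%).

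Late-lost sites lay mostly away from promoters. Of the 658 sites, 103 (15.7%, 95% Wilson interval 13.1 to 18.6) had their summit within 1 kb of a protein-coding start site, 269 were in introns, 15 in exons and 271 between genes. Promoters made up 30.2% of all consensus sites and 59.5% of the sites in all 17 lists. A low promoter share was not particular to late-lost sites: it was 11.7% in sites lost at 1 and 18 h, 13.9% in sites lost at 1 h and present at 18 h and 5.13% in sites that opened at 18 h. Against retained sites of like median 0 h rank it was 11.4% against 42.1% at ranks 8000 to 12000, 17.03% against 28.57% at 12000 to 16000, 17.9% against 13.5% at 16000 to 20000 and 12.8% against 13.3% at 20000 to 24389. Put by place, 0.999% of promoter sites, 2.26% of intronic sites and 2.46% of intergenic sites were late-lost. The median distance to a start site was 14658 bp, against 8304 bp over all sites. The base composition was close to the average, with a median GC content of 51.2% in the 201-bp window around the summit and 51.7% over all sites. Late-lost promoters had a GC content of 59.7% and 11 CpG dinucleotides at the median and intronic late-lost sites 50.7% and 2.

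The AP-1 motif was found in more late-lost sites than any of the other motifs among the 19 searched. It occurred within 100 bp of the summit in 173 late-lost sites (26.3%, 23.1 to 29.8), against 16.2% of all consensus sites. Since promoters hold few AP-1 motifs, sites over 1 kb from a start site were compared on their own. There AP-1 occurred in 28.6% (25.0 to 32.5) of 555 late-lost sites and in 25.8% (24.6 to 27.0) of 5118 sites that were open at 0 and 1 h and in all 6 lists at 18 h. These intervals overlapped, so the AP-1 share did not separate late-lost sites from retained ones. It did separate them from sites lost already at 1 h: 7.79% (5.93 to 10.2) of 616 sites lost at 1 and 18 h and 10.5% (8.29 to 13.2) of 611 sites lost at 1 h and present at 18 h held the motif.

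The C/EBP motif (TTGCNNAA or TTACNNAA) is an octamer bound by the lineage factors C/EBPα and C/EBPβ. Away from promoters it was less frequent in late-lost than in retained sites. It occurred in 14.4% (11.7 to 17.6) of the late-lost sites over 1 kb from a start site and in 20.5% (19.4 to 21.6) of the retained ones. With promoters included the order was reversed, at 14.3% and 13.2%. Away from promoters, sites open at 0 and 1 h and in 2, 3 and 4 lists at 18 h had shares of 17.1%, 14.1% and 14.5%. Among sites lost at 1 and 18 h it was 16.7% (13.98 to 19.87), which overlapped the late-lost share, so the low share was not particular to late-lost sites. In sites that opened at 18 h only, the share was 31.7% (28.5 to 35.1). The gap to retained sites was present in the 3 bands of median 0 h rank that held most late-lost sites. It was 11.9% against 24.6% at ranks 12000 to 16000, 15.5% against 22.6% at 16000 to 20000 and 12.5% against 25.0% at 20000 to 24389. The intervals were apart at ranks 12000 to 16000 and overlapped in the other bands. At ranks 8000 to 12000 the shares were 22.6% of 62 late-lost and 21.3% of 1416 retained sites.

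The EGR motif, the core of the zinc finger site of Egr1 and Egr2, was rare, and its share was higher in late-lost than in retained sites under the conditions used here. It was found in 26 late-lost sites over 1 kb from a start site (4.68%, 3.22 to 6.78) and in 2.15% (1.79 to 2.58) of the retained ones. The share over all late-lost sites, 5.93%, depended on the cut-offs: it was 2.01% where a peak had to cover 50% of the site and 4.03% with the best 10000 peaks. Among sites lost at 1 and 18 h the share was 1.79% (1.00 to 3.17), below the late-lost interval and overlapping the retained one. The RUNX share was 11.2% (8.81 to 14.1) in late-lost and 8.50% (7.77 to 9.29) in retained sites. The PU.1-IRF composite GGAANNGAA, where PU.1 and an IRF bind side by side, stood at 13.5% (10.9 to 16.6) and 10.2% (9.44 to 11.1). For RUNX and the composite element the intervals overlapped.

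For other inflammatory regulators the share over all sites lay inside the interval of the late-lost sites. NF-kB occurred in 3.80% of late-lost and 4.82% of all sites, the interferon-stimulated response element GAAANNGAA in 6.99% and 7.71%, and the Nur77 response element AAAGGTCA (NBRE) in 1.37% and 1.04%. The octamer of PU.1, GAGGAAGT, was in 8.97% and 7.71%. None of AP-1, PU.1, C/EBP, RUNX, EGR and the PU.1-IRF composite was found in 269 late-lost sites (40.9%), against 53.4% of all sites. A match of these letters does not show that a factor was bound, and their absence draws nothing about it.

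**Figure D3:**
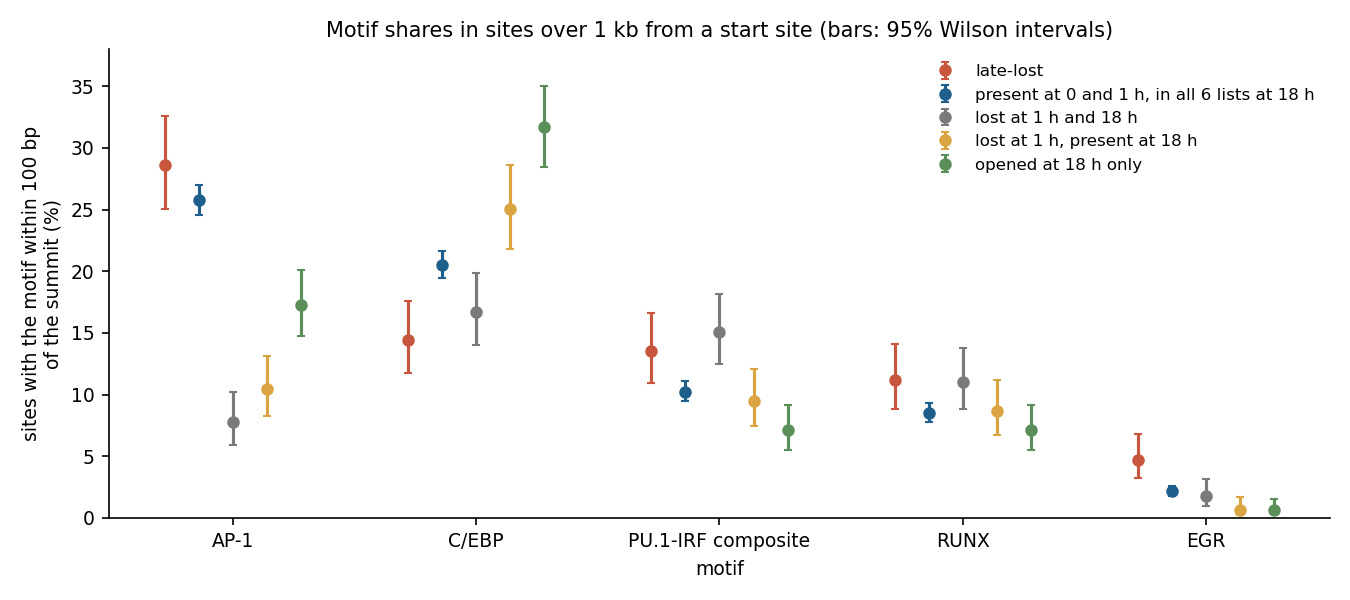
Percent of sites over 1 kb from a start site (y axis) with each motif (x axis) within 100 bp of the summit, for late-lost sites (n = 555) and 4 other classes of sites; bars are 95% Wilson intervals. AP-1 shares of late-lost (28.6%) and retained sites (25.8%) overlap, C/EBP is lower in late-lost sites (14.4% against 20.5%) and EGR is higher (4.68% against 2.15%).

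Late-lost sites with an AP-1 motif improved in rank at 1 h more often than those without. This held for 123 of 173 (71.1%) against 279 of 485 (57.5%), where 8.09% and 18.4% of the sites were promoters. Among all 16256 sites open at 0 and 1 h the shares were 64.5% with the motif and 33.9% without it. The share still listed in all 3 WT lists at 18 h was 61.8% with the AP-1 motif and 74.2% without it. It was also lower with the PU.1-IRF composite (59.8% against 72.6%), PU.1 (62.7% against 71.8%) and RUNX (64.7% against 71.7%), so this was not particular to AP-1. The motif lay at a median of 42 bp from the summit in late-lost sites and 33 bp over all sites. The AP-1 matches of 5 late-lost sites are shown with 10 flanking bases on each side, on the strand that reads TGAGTCA, to show how the flanks vary around the shared core. Map1s (chr8:70911380-70911406) encodes a microtubule-associated protein, and Mef2a (chr7:67460060-67460086) a transcription factor. The Fosl1 site (chr19:5447887-5447913) lies at the promoter of a gene that encodes an AP-1 subunit itself, and Egr2 (chr10:67483541-67483567) is an immediate-early zinc finger factor. Folr2 (chr7:101854090-101854116) encodes the folate receptor of resident macrophages.

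Map1s: cccagtgggtTGAGTCAccacctacag
Mef2a: gaagtgcagcTGAGTCActgtgctggt
Fosl1: gaggcgcgagTGAGTCAgaaccgcagc
Egr2: agagagtaaaTGAGTCAtccactgagt
Folr2: tttaaaggaaTGAGTCAacttaatgag

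The late-lost sites had 625 different nearest protein-coding genes, of which 597 had 1 late-lost site, 24 had 2 and 4 had 3 or more. Tiam1, a Rac exchange factor that acts on the actin cytoskeleton, had 4 late-lost sites. Ado (a cysteamine dioxygenase), Maml3 (a Notch coactivator) and Rab4a (a small GTPase of endosome recycling) had 3 each. The Rab4a sites went apart at 1 h: the median ranks of 2 of them went from 22547 to 7875 and from 13775 to 5298, and that of the third from 18212 to 21738. All 3 lay in introns of the annotated gene Gm20388. Nearest genes are a label of position, and no link to expression was measured here. Only 61 sites (9.27%) had another late-lost site within 50 kb.

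The best-ranked late-lost site of all lay 33898 bp from a Tiam1 start site (chr16:90176967-90178446). It ranked 2670, 1959 and 2534 in the WT lists and 3093, 2820 and 1761 in the Nur77-KO lists at 0 h. At 1 h the ranks were 1875 and 2749 in WT and 2633, 3285 and 3336 in Nur77-KO, which overlapped with 0 h. At 18 h it stood at 20452, 25817 and 34023 in WT, at 31539 in Nur77-KO replicate 1 and in neither of the other Nur77-KO lists.

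Immediate-early genes, which are transcribed within the first hour of a stimulus without new protein synthesis, were represented by 4 of 31 genes. Over all genes with a consensus site the share with a late-lost site was 4.74%, but immediate-early genes had many sites each, and 5 of their 233 sites (2.15%) were late-lost against 1.93% of all sites. The 4 genes were Nr4a1, Fosl1, Egr2 and Myc.

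The Nr4a1 promoter (chr15:101265724-101268098), with its summit 91 bp from a start site, was the 1 late-lost site among the 6 consensus sites nearest to this gene. It ranked 9621, 12757 and 14095 in WT and 13506, 13310 and 18317 in Nur77-KO at 0 h. At 1 h it ranked 6804 and 5398 in WT and 10335, 9198 and 7503 in Nur77-KO, better than 0 h within each genotype. At 18 h it stood at 34804, 25788 and 23111 in WT and was absent from all 3 Nur77-KO lists. A peak at this promoter does not check the deletion, since the promoter need not lie in the removed part. The genotype difference over 0 and 1 h, on the scale of log2(24389/rank), was -0.42 ± 0.146 (SE) with lower values in Nur77-KO, with an adjusted p of 0.658 by limma over all sites.

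The Myc promoter (chr15:61983133-61988401), of the growth regulator c-Myc, ranked 7648, 8712 and 6450 in WT and 9545, 13883 and 12594 in Nur77-KO at 0 h. At 1 h it ranked 11458 and 8250 in WT and 8843, 8225 and 7890 in Nur77-KO, better than every rank at 0 h in Nur77-KO and overlapping or worse in WT. The interaction of genotype and time had an adjusted p of 0.411 by limma. At 18 h it was at 32049, 25762 and 33935 in WT and at 17945 in 1 Nur77-KO list, with no peak in the other 2. The Fosl1 promoter was weaker throughout, with ranks of 15042 to 30867 at 0 h and 17000 to 26568 at 1 h.

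Egr2 and Ado are neighbours, and no other protein-coding gene starts within 200 kb of the first Egr2 start site. This stretch was looked at after the counts per gene were seen. It held 24 consensus sites, counted here by the best 24389 peaks of each list, of which 4 were late-lost, at -51.9, 113, 168 and 182 kb from that start site. The site at 2.26 kb, by Egr2 itself, and those at 13.7, 61.3 and 63.3 kb were in all 17 lists. The sites at 30.8, 72.8 and 116 kb were outside the best 24389 peaks of every list at 0 h, where some lists held them at lower rank, and inside those of all 5 lists at 1 h. At 18 h the site at 30.8 kb was among the best peaks of all 6 lists and the other two among those of none.

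The site at 182 kb, nearest to Ado (chr10:67717226-67718284), was among the best-ranked late-lost sites at 1 h. Its ranks were 10636, 10537 and 13270 in WT and 11060, 8835 and 11246 in Nur77-KO at 0 h. They were 1080 and 1982 in WT and 2022, 1354 and 1605 in Nur77-KO at 1 h, so every list at 1 h ranked it above every list at 0 h. At 18 h it was at 32722, 26457 and 26092 in WT and at 19259 and 25977 in 2 of the Nur77-KO lists.

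**Figure D4:**
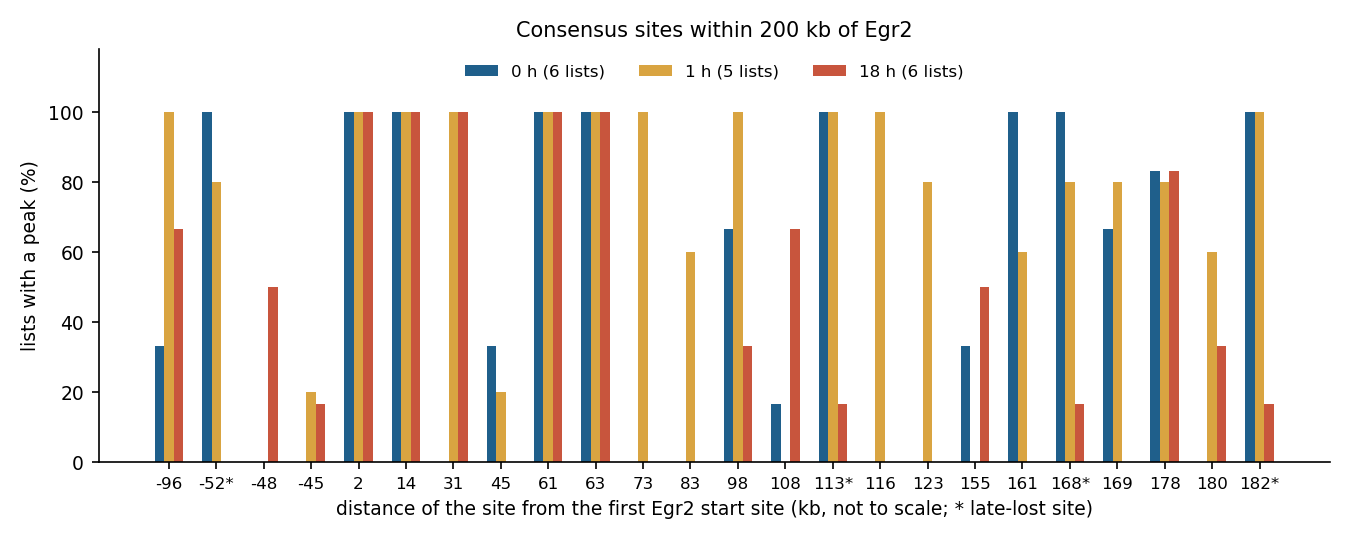
Percent of the lists at 0 h (6), 1 h (5) and 18 h (6) with a peak among the best 24389 (y axis) for the 24 consensus sites within 200 kb of Egr2, in order of their distance in kb from its first start site (x axis, not to scale). The 4 late-lost sites (asterisks) lie at -51.9, 113, 168 and 182 kb, and 4 sites are in all 17 lists.

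Among 36 macrophage transcription factors, 7 had a late-lost site: Mef2a, Bach2, Id2, Bhlhe40, Tcf4, Ikzf1 and Tal1. These genes also had many sites, and 7 of 310 (2.26%) were late-lost. The site 48731 bp from Bhlhe40, a stress-responsive helix-loop-helix repressor (chr6:108708920-108710348), ranked 12817, 13561 and 10626 in WT and 7801, 7770 and 13083 in Nur77-KO at 0 h. At 1 h it ranked 5147 and 3910 in WT and 3763, 2245 and 2660 in Nur77-KO, all better than at 0 h. Later, at 18 h, it was at 26274, 32763 and 32985 in WT and at 21300 and 25202 in 2 Nur77-KO lists. The sites near Id2 and Ikzf1 had worse median ranks at 1 h, which went from 8931 to 17974 and from 16626 to 22094. The site near Mef2a ranked 13397, 13418 and 13077 in WT and 10370, 13021 and 13135 in Nur77-KO at 0 h. Its ranks at 1 h were 12591 and 15340 in WT and 21770, 24133 and 34887 in Nur77-KO, so the ranks at 1 h were worse than at 0 h in every Nur77-KO list and overlapped in WT. The interaction of genotype and time at this site had an adjusted p of 0.243 by limma over all sites.

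Of 40 macrophage surface receptor genes with a site, Axl and Itgax had a late-lost one. Axl encodes a receptor tyrosine kinase that takes part in the uptake of dying cells, and its intronic site (chr7:25776340-25777796) ranked 7191, 6282 and 6512 in WT and 6334, 11055 and 7293 in Nur77-KO at 0 h. At 1 h it was absent from WT replicate 1-2 and ranked 13830 in the other WT list and 17828, 13644 and 18055 in Nur77-KO, so it was lower than at 0 h in every list. At 18 h it was at 37379 and 37343 in 2 WT lists and in no other. The Itgax promoter (integrin CD11c) ranked between 14378 and 20253 at 0 h and between 8090 and 16199 at 1 h, which overlapped.

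Genes of Toll-like receptor signalling with a late-lost site numbered 3 of 28. They were Ly96, which encodes the LPS co-receptor MD-2, Tab2, an adaptor of the TAK1 kinase, and Nfkbia, which encodes the NF-kB inhibitor IκBα. The intronic Ly96 site ranked 14057 to 17364 at 0 h and 5323 to 7931 at 1 h, with no overlap, and the median rank of the site 42124 bp from Nfkbia went from 17801 to 11077. Of 31 cytokine and chemokine genes only Csf1, the macrophage growth factor gene, had late-lost sites, of which there were 2. The better-ranked one (chr3:107777499-107778977) ranked 9730 to 13052 at 0 h and 4146 to 7383 at 1 h, again without overlap, and 33212, 32512 and 36537 in WT at 18 h.

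Lipid and cholesterol genes with a late-lost site numbered 3 of 29, namely Lpl, Fads1 and Fads2. The Lpl promoter, of the lipoprotein lipase that releases fatty acids from triglyceride (chr8:68879904-68885731), was the best-ranked late-lost promoter. It ranked 5675, 5287 and 5864 in WT and 6655, 5982 and 8610 in Nur77-KO at 0 h, and 2363 and 13237 in WT and 10620, 7043 and 7326 in Nur77-KO at 1 h, with overlap between the times. Its 18 h ranks were 20986, 35807 and 28337 in WT and 25479 in 1 Nur77-KO list. The Fads2 promoter, of a fatty acid desaturase, ranked 11326 to 15243 at 0 h and 11615 to 18078 at 1 h.

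Adhesion genes with a late-lost site numbered 3 of 32 (Vcl, Itga4 and Wasf2), lysosome and phagocytosis genes 2 of 30 (Atp6v0d2 and Atp6v0a1) and cell cycle genes 2 of 35 (Ccnd3 and Myc). The site 37350 bp from Vcl, the gene for the focal adhesion protein vinculin, had a median rank of 5180 at 0 h and was in no Nur77-KO list at 18 h. The Ccnd3 promoter (cyclin D3) ranked 9669 to 15174 at 0 h and 17686 to 23313 in the 4 lists at 1 h that held it. None of 20 antigen presentation genes had one, where 53 sites were at hand. The shares of late-lost sites ran from 1.20% to 2.97% over the other lists around the 1.93% of all sites, and with 2 to 7 sites a list none of these is read as particular.

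Strict late-lost sites, in all 11 lists at 0 and 1 h and in none at 18 h, were led by the Lgi4 promoter (chr7:31059032-31060110), of a secreted leucine-rich protein. It ranked 5185 to 8559 at 0 h, 6923 to 9679 at 1 h and 25777, 28125 and 28256 in WT at 18 h. Next came an intronic site of Colgalt1, a collagen galactosyltransferase, with ranks of 5390 to 8068 at 0 h and 7734 to 13755 at 1 h. The site near Zfp90 (a zinc finger protein) ranked 5786 to 10190 at 0 h and 2374 to 8557 at 1 h, and at 18 h it was at 52991 and 30397 in 2 WT lists and at 29757 in 1 Nur77-KO list. The other strict sites of this group were near Lrrc1, Map1s, Chd1, Angptl2, Arl4d, Smim15, Itpk1, Nenf and Armc2, with median ranks at 0 h of 7520 to 8903. Further leading promoters were those of Zfp395, Oacyl, Sardh, Carmil1 and Amz1, with median ranks at 0 h of 8902 to 10886.

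**Figure D5:**
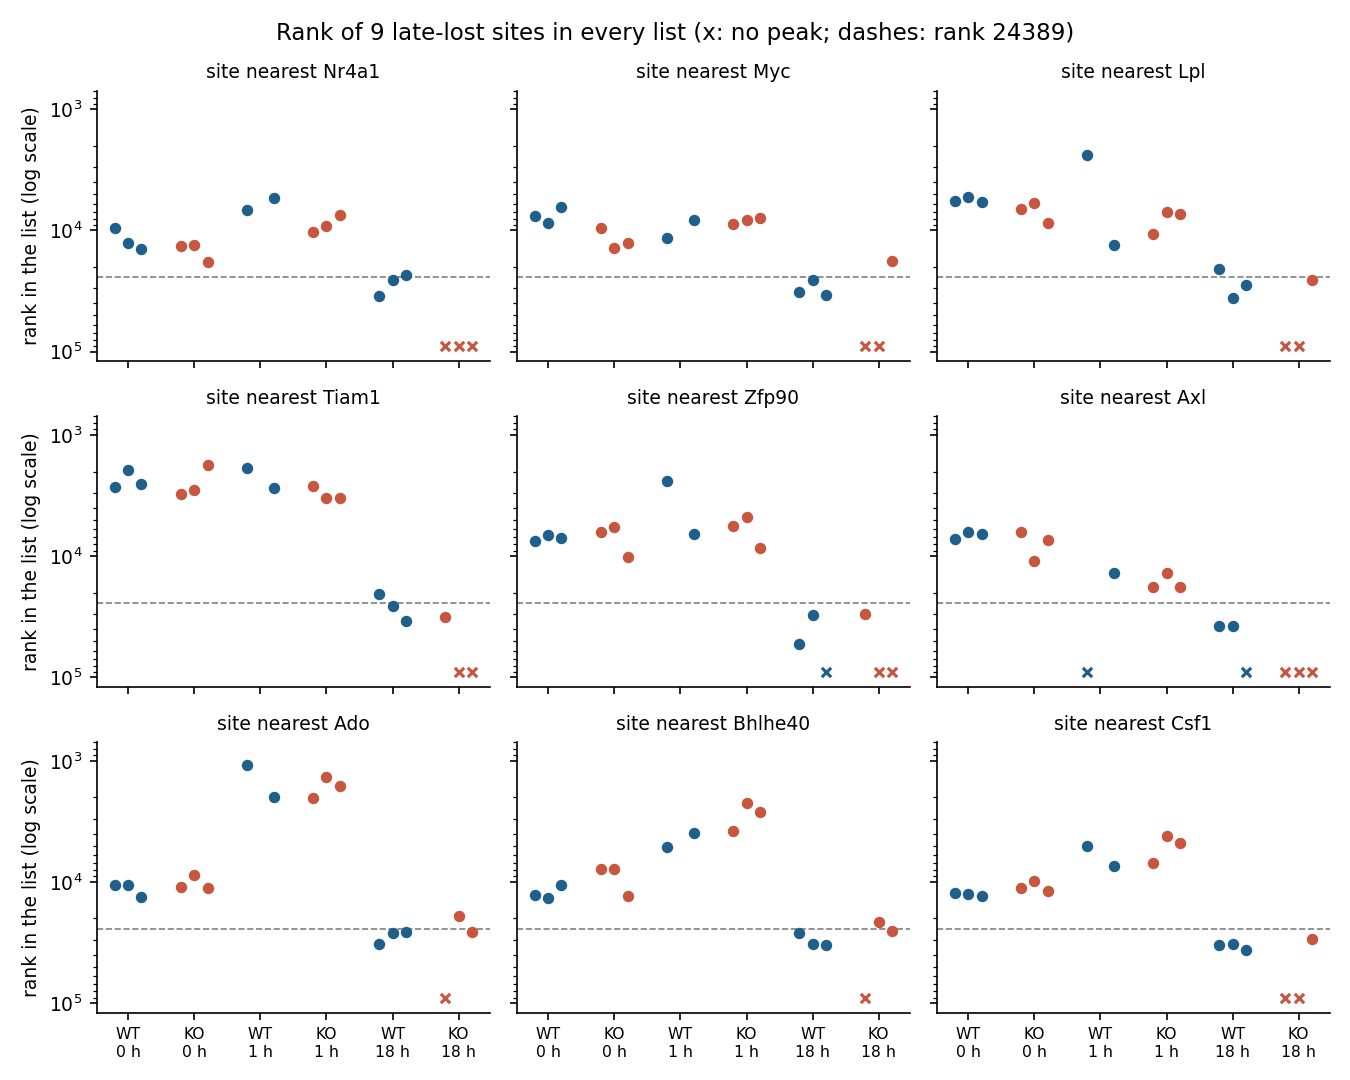
Rank (y axis, log scale, best at the top) of 9 late-lost sites in every list, by genotype and hours of LPS (x axis); crosses are lists with no peak and the dashed line is rank 24389. Ranks at 1 h lie above those at 0 h near Ado, Bhlhe40 and Csf1, below them at Axl, and overlap, with both genotypes pooled, near Tiam1 and at the Myc and Lpl promoters.

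Whether ranks at 0 and 1 h differed between the genotypes was tested over the 11 lists at these times. The choice of sites did not use genotype but used the same ranks, and a site absent from the best peaks of 1 genotype at 0 or 1 h could not be chosen, so the counts below are limited to differences in rank among sites present in both. The score log2(24389/rank), with absent peaks at 0, was fitted across 30564 sites by limma, with time as a covariate. No late-lost site passed an adjusted p of 0.05, where 27 sites did over all sites (0.0883%). At an unadjusted p under 0.05 there were 86 late-lost sites (13.1%), 46 higher and 40 lower in Nur77-KO, against a background of 6.86%. This background is not a like set, since it includes sites with a peak in only 2 of the 11 lists. A background over the 16256 sites that met the conditions at 0 and 1 h was not drawn, so the excess is not read as particular to late-lost sites. The median difference over the late-lost sites was 0.01 on this scale.

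The smallest p among late-lost sites belonged to the site near Arl4d, a small GTPase of the ARF family (chr11:101657708-101661399). It ranked 7213, 5432 and 5247 in WT and 14674, 9573 and 12382 in Nur77-KO at 0 h. At 1 h it ranked 6589 and 9754 in WT and 14395, 14271 and 14342 in Nur77-KO, so the genotypes did not overlap at either time. The difference was -0.94 ± 0.146 (SE) with an adjusted p of 0.0708 by limma, and from 0.0443 to 0.233 over the alternatives. It passed only without WT replicate 3 at 1 h. The next smallest p belonged to the promoter of Apold1, a gene of the endothelial stress response, which was named after its p was seen. It ranked 20507, 21062 and 20580 in WT and 12559, 14200 and 11966 in Nur77-KO at 0 h, and 12522 and 14509 in WT and 8918, 6355 and 9952 in Nur77-KO at 1 h. The difference was 0.70 ± 0.114 (SE), higher in Nur77-KO, with an adjusted p of 0.0865 by limma and from 0.0402 to 0.368 over the alternatives. It passed only without Nur77-KO replicate 2 at 1 h.

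The response to 1 h of LPS was tested under the same limit, since a site lost at 1 h in 1 genotype only could not be chosen. In the limma fit with an interaction of genotype and time, 0 late-lost sites and 4 of all 30564 sites (0.0131%) passed. At an unadjusted p under 0.05 there were 80 late-lost sites (12.2%) against a background of 8.84%, which is not a like set for the same reason. Leaving out WT replicate 3 at 1 h leaves that group with the shallowest library alone and assumes that it varies like the other groups. The calls of that fit were therefore not read. With 2 WT lists at 1 h, these fits can miss moderate differences.

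The loss at 18 h was also read across genotypes. In the 8 WT lists alone, 552 consensus sites were present in all lists at 0 and 1 h and absent from all at 18 h. In the Nur77-KO lists, which did not enter that choice, 84.5% ± 7.26 of them were present at 0 h, 85.7% ± 5.08 at 1 h and 13.4% ± 1.09 at 18 h (SD, n = 3 lists). In the 9 Nur77-KO lists alone, 498 sites met these conditions. In the WT lists 94.3% ± 0.505 of these were present at 0 h, 82.5% ± 8.52 (n = 2) at 1 h and 26.9% ± 1.98 at 18 h (n = 3). In both directions the lists at 18 h lay below all lists at 0 and 1 h of the genotype that was not used. However, 407 of the 552 and 332 of the 498 sites were late-lost sites. For these the low presence at 18 h in the other genotype follows from how they were chosen. No share over all sites open at 0 and 1 h was drawn beside these values, and the part of depth was not tested.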

How the data were processed

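ATAC-seq peak lists of 17 BMDM libraries were used. Per the labels, the file headers and the study's methods, the authors trimmed reads with cutadapt 2.6, mapped them to mm10 with the snakeATAC pipeline, removed mitochondrial and duplicate reads and reads of mapping quality under 20, and called peaks per library at a q-value of 0.001. The peak caller is not given in the sources used here. The deposited lists give for each peak a score, a fold ratio of summit reads over background, and the −log10 p-value and −log10 q-value of the summit, as the authors' caller wrote them. The −log10 q-value and the score were not used in comparisons.

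Identical intervals were collapsed to the highest −log10 p-value and ranked by it, with ties broken by fold, chromosome and start. Background reads per kb were solved from fold and p-value, taking reads at the summit as whole numbers within 0.05. Places, nearest protein-coding genes and sequences came from the GENCODE annotation and the RefSeq genome of GRCm38.p6 (mm10); motif letters were matched in the 201 bases around the summit of the best-ranked peak of each site, in either orientation. Shares carry 95% Wilson intervals, which cover counting error only. The score log2(24389/rank), with absent peaks at 0, was fitted with limma 3.58.1 (R 4.3.3) for the 11 lists at 0 and 1 h over sites with a peak in 2 or more of them, with Benjamini-Hochberg adjustment over all sites, after the fit was tested on simulated data. Other steps used Python 3.11.15, pandas 2.3.3, numpy 2.4.6, statsmodels 0.14.6 and pysam 0.24.0.

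Named sites were the 12 best-ranked strict sites, the 8 best-ranked promoters, sites of genes with 3 or more, up to 4 per gene list, the site nearest Nr4a1 and sites called in the genotype fit, of which there were none; others are said to be chosen after their values were seen. The late-lost sites and all lists were chosen with earlier results of these data known.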

Additional observations from a re-analysis of the deposited data

How the results depend on the processing

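The number of late-lost sites depended on the cut-offs. It was 248 with the best 10000 peaks per list, 149 where a peak had to cover 50% of the site and 187 in the strict form. With only the lists of at least 1 background read per kb, an alternative chosen after seeing the data, it was 1076. Leaving out 1 list gave 675 to 823. In the last 2 cases 1 exception per time was still allowed among the lists left, which loosens the conditions and raises the count. The promoter share was 27.8% with the best 10000 peaks, 7.41% with all deposited intervals, 6.71% with 50% cover and 10.7% in the strict form (leaving out 1 list, 14.5% to 16.8%). The AP-1 share was 20.6% with all intervals, 33.6% with 50% cover and 14.3% within 50 bp of the summit (24.4% to 27.6%), and the C/EBP share was 18.8% with 50% cover and 7.45% within 50 bp (13.1% to 15.3%). The mean share of sites still listed at 18 h was 99.7% in WT and 90.1% in Nur77-KO with the best 10000 peaks. With all intervals it was 16.9% and 2.47%. These low values follow from the choice, which then allows a peak in at most 1 full list at 18 h. With the main cut-off, leaving out 1 list gave 84.4% to 92.2% in WT and 28.1% to 35.7% in Nur77-KO. In Nur77-KO the share was 47.1% with the best 20000 peaks, 52.6% with 50% cover and 19.96% in the strict form.

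The limma fit called 27 sites for genotype, none late-lost, and 35 with depth as a covariate, 15 with a replicate block, 12 with ranks capped at 20000, and 7 to 29 without 1 list (0 to 1 late-lost). The interaction called 4 sites, and 0 with depth as a covariate, 1 with the replicate block, 80 with no filter, 97 with ranks capped at 20000 (1 late-lost) and 0 to 1177 without 1 list (0 to 23 late-lost). The highest interaction counts came without WT replicate 3 at 1 h, and the highest genotype count without a list, 29, came without Nur77-KO replicate 2 at 1 h. Same-numbered lists did not deviate together (correlations of -0.150 to 0.157 over 12 pairs), so the numbers were not taken to pair the samples. Causes of these shifts were not tested.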
